A study of Mus musculus with 24 samples.

Results

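The miRNAs described here are the 7 mature products mmu-mir-23a-3p, mmu-mir-23b-3p, mmu-mir-24-3p, mmu-mir-27a-3p, mmu-mir-27b-3p, mmu-mir-26a-5p and mmu-mir-26b-5p (written miR-23a-3p and so on), taken by name from the 1073 mouse miRNA names that had at least 1 read. The data are small RNA-seq counts from exosome-enriched fractions (EEFs) of the hippocampus of male C57BL/6 mice (C57BL/6OlaHsd in the study's methods), 6 to 9 weeks old. Mice received 0.3 µg kainic acid (KA) in 0.2 µl, or PBS as control, into the right basolateral amygdala; KA at this site sets off status epilepticus that spreads to the hippocampus, and midazolam (8 mg/kg) was given after it. Hippocampi were taken 24 h or 2 weeks later, after perfusion with PBS, and EEFs were prepared by ultracentrifugation (UC) or with a precipitation solution (kit). With 3 libraries in each of the 8 combinations there were 24 libraries, and each fraction came from pooled hippocampi and was treated with RNase A before RNA extraction. Tissue was broken up in Hibernate A for UC and in PBS for the kit, and the fractions were prepared separately. More hippocampi were pooled per sample for UC than for the kit. The method therefore cannot be told apart from the size of the pool or from the set of libraries it was applied to. The study describes the 3 libraries of a group as biological replicates, each a pool; which animals entered each pool is not given in the sources used here, and the p-values measure the spread between these pools.

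A miRNA binds mRNAs mainly through its seed, bases 2 to 8 from the 5′ end, and lowers their translation or stability. The miR-23, miR-24 and miR-27 families are transcribed together from a pair of duplicated clusters, each of which carries 1 copy of each family, whereas the miR-26 copies lie within genes of the Ctdsp phosphatase family. In the nervous system and vasculature the clusters are known for roles in neuronal survival and endothelial function, and miR-26 for roles in neuronal differentiation and growth control.

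The mature sequences are shown because the paralogues differ by so few bases that the assignment of a read to one copy or the other rests on them. They were taken from RefSeq for GRCm38.p6, matched 6 of the 7 names (not miR-23b-3p), and are written 5′ to 3′ with the seed in capitals.
miR-23a-3p: aUCACAUUgccagggauuucc
miR-24-3p: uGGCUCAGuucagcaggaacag
miR-27a-3p: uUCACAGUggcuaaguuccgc
miR-27b-3p: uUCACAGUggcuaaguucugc
miR-26a-5p: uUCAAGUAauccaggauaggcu
miR-26b-5p: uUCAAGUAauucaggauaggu
The seed UCACAGU was shared by both miR-27 copies and the seed UCAAGUA by both miR-26 copies, while miR-23a-3p and miR-24-3p each had their own. Counted from 1 at the 5′ end, miR-27b-3p differed from miR-27a-3p by the substitution C19U, and miR-26b-5p differed from miR-26a-5p by C11U and C21U. All of these lie outside the seed. How the counting program shared out reads that fit more than 1 copy is not given in the sources used here, and the counts of the less abundant copy of each pair are therefore uncertain.

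Cluster a (Mir23a, Mir27a and Mir24-2) spans 404 bases at chr8:84208518-84208921, with Mir24-2 in an exon of the lincRNA gene Gm26532 and the other two hairpins in no annotated gene. Cluster b (Mir23b, Mir27b and Mir24-1) spans 792 bases at chr13:63300484-63301275, inside the gene 2010111I01Rik on the same strand and inside an intron of Fancc on the opposite strand. The mature miR-24-3p was identical from both clusters, so that its reads could not be assigned to either. Mir26a-1 lies in an intron of Ctdspl on chromosome 9, Mir26a-2 in an exon of Ctdsp2 on chromosome 10 and Mir26b in an intron of Ctdsp1 on chromosome 1.

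Total miRNA counts were 85436 to 169639 per UC library (median 132335) and 154884 to 676726 per kit library (median 277043). Levels below are CPM, the count scaled by the library's total miRNA count. A mean of 4.00% ± 0.82 of UC reads (SD, n = 12, range 2.59 to 5.33%) and of 8.51% ± 0.74 of kit reads (SD, n = 12, range 7.20 to 9.73%) belonged to the 7 miRNAs. miRNAs known from oligodendrocytes (miR-219a-5p, miR-219a-2-3p and miR-338-3p) summed to 6137 to 10956 CPM in UC and 1760 to 2255 CPM in the kit set, and the endothelial miR-126a-3p and miR-126a-5p to 218 to 609 CPM and 2101 to 3242 CPM. Most of the first difference lay in miR-219a-2-3p (median 7223 and 851 CPM), while the ranges of miR-338-3p overlapped (medians 1258 and 1086 CPM), as did those of miR-219a-5p (238 and 111 CPM). The neuronal miR-124-3p, miR-9-5p and miR-128-3p summed to 27404 to 39339 CPM in UC libraries and 39589 to 75172 CPM in kit libraries. Of these, miR-124-3p had overlapping ranges and close medians (5754 and 6033 CPM). The medians of miR-9-5p (19839 and 30025 CPM) and miR-128-3p (7148 and 15274 CPM) were higher in the kit set. Of 5 blood cell miRNAs listed 4 had reads, with sums of 310 to 1247 CPM in UC and 421 to 1519 CPM in the kit set; miR-486b-5p, with 310 CPM or more in every library, made up most of them, and miR-451a was at 0 in 10 UC libraries and 1 kit library. The part of these differences in the results was not tested. The control kit library at 24 h numbered 2 was the shallowest of the kit set (154884 counts), the KA kit library at 2 weeks numbered 2 the deepest (676726 counts).

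Of the 7 miRNAs, miR-27b-3p and miR-26a-5p carried most of the reads in every library. miR-27b-3p, from cluster b, had a mean of 19796 ± 3317 CPM in UC and 38007 ± 13451 CPM in kit libraries (SD, n = 12 each), and ranked 8th and 7th among all miRNAs. miR-26a-5p had 16682 ± 6233 and 43086 ± 8574 CPM and ranked 10th and 5th. miR-24-3p came next, with 2703 ± 743 CPM in UC and 1860 ± 606 CPM in the kit set. The remaining levels were lower by an order of magnitude or more than those of the leading pair. miR-26b-5p had 454 ± 214 and 1006 ± 199 CPM, miR-27a-3p had 234 ± 48.0 and 544 ± 170 CPM, miR-23b-3p had 117 ± 44.9 and 368 ± 248 CPM, and miR-23a-3p had 54.4 ± 25.2 and 196 ± 28.9 CPM. In UC libraries the last 2 rested on 6 to 24 and on 1 to 16 reads per library, where counting error alone is wide: the 1 read of miR-23a-3p in the first control library at 24 h was 10.4 CPM with an exact Poisson 95% interval of 0.264 to 58.1 CPM. Reads without molecular identifiers are not independent molecules, and such intervals cover counting error only.

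**Figure D1:**
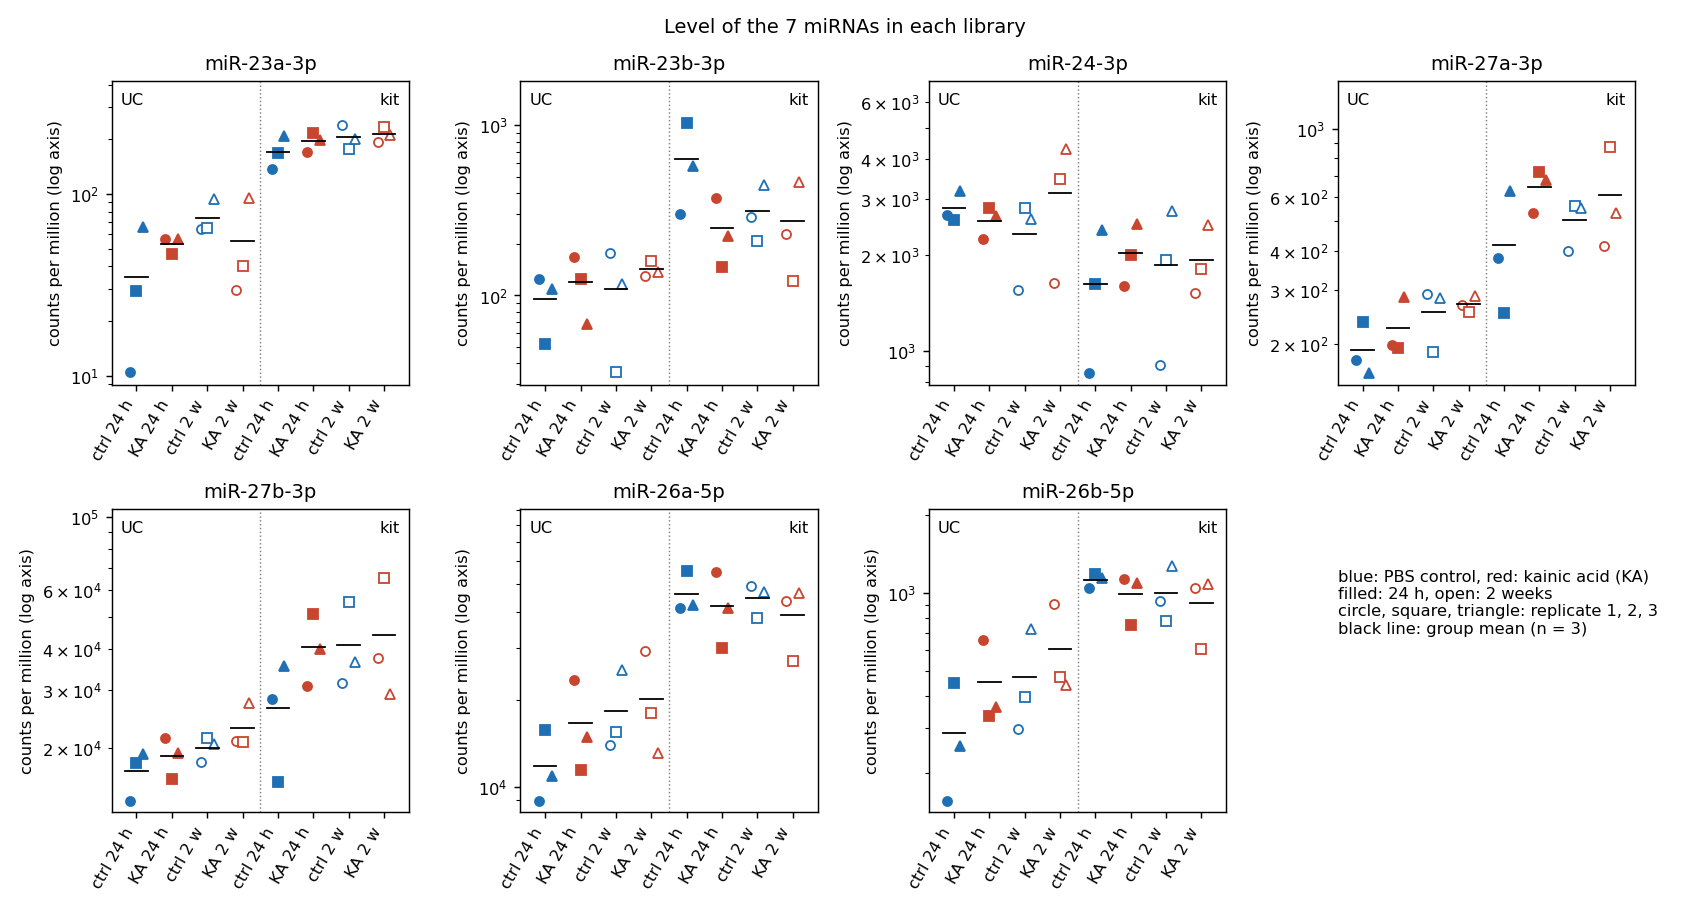
Level of each of the 7 miRNAs in each of the 24 libraries, in CPM on a log axis, by group, with the group mean as a black line (n = 3). Points right of the dotted line are kit libraries; miR-23a-3p is higher in all 12 of them than in any UC library, whereas miR-24-3p sits lower on average.

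The first comparison asked how the isolation method bore on these miRNAs. 6 of the 7 were higher in kit than in UC fractions and miR-24-3p was lower, and all 7 passed the test across all miRNAs (edgeR quasi-likelihood test over the 24 libraries with the 8 groups as terms, adjusted p under 0.05). The same test called 65.5% of the 397 miRNAs fitted, 33.5% higher and 32% lower in the kit set, so that a call was the usual outcome for a miRNA here. The median log2 fold change of the 7 was 1.18, beside 0.03 over all 397.

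Within the miR-23 family, miR-23a-3p ranged from 10.4 to 94.99 CPM in UC libraries (median 56.5) and from 138 to 239 CPM in kit libraries (median 199). Its ranges did not overlap, as was so for 10.8% of the miRNAs fitted, and it was the only one of the 7 for which this held. Its log2 fold change was 1.82 (SE 0.23, adjusted p = 2.17e-08). miR-23b-3p ranged from 35.4 to 177 CPM with UC (median 125) and from 121 to 1027 CPM in the kit set (median 296), with a log2 fold change of 1.49 (SE 0.25, adjusted p = 3.69e-06). Its ranges overlapped at the low end of the kit set.

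For miR-27a-3p the UC libraries lay between 160 and 289 CPM (median 244) and the kit libraries between 252 and 875 CPM (median 542), and the log2 fold change was 1.18 (SE 0.18, adjusted p = 1.02e-06). miR-27b-3p lay between 13823 and 27315 CPM with UC (median 19969) and between 15773 and 65375 CPM in the kit set (median 35922), and its log2 fold change of 0.88 (SE 0.16, adjusted p = 1.71e-05) was the smallest of the 6 increases. Both miR-27 copies were higher in the kit set although their ranges overlapped, for miR-27b-3p through 1 kit library, the shallow control at 24 h. miR-27b-3p no longer passed when miR-92b-3p and miR-25-3p set the scale of the libraries (log2 fold change 0.41, adjusted p = 0.0542), a scaling that moved the median of all miRNAs to -0.41. The other 6 still passed.

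miR-24-3p went the other way. It ranged from 1558 to 4298 CPM in UC libraries (median 2660) and from 851 to 2736 CPM in kit libraries (median 1864), with a log2 fold change of -0.61 (SE 0.19, adjusted p = 0.00636). The ranges overlapped. The passenger arm miR-24-2-5p, which comes only from cluster a, was higher in the kit set, with a mean of 22.2 CPM over UC libraries (0 to 51.0) and of 58.3 CPM over kit libraries (30.9 to 99.0), a log2 fold change of 1.27 (SE 0.33, adjusted p = 0.00106), and the corresponding arm of cluster b, miR-24-1-5p, had 0 reads in UC libraries and 15 in all kit libraries. miR-27b-5p, the arm opposite miR-27b-3p, had 80.1 ± 40.2 and 59.2 ± 17.6 CPM, a log2 fold change of -0.46 (SE 0.26, adjusted p = 0.124) that did not pass. Of 12 opposite arms and overlapping products of these hairpins, 10 had any read and 8 of these had 18 or fewer reads in all libraries together.

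Both miR-26 copies were higher in the kit set. miR-26a-5p ranged from 8951 to 29362 CPM with UC (median 15153) and from 27108 to 55332 CPM in the kit set (median 43100), with a log2 fold change of 1.36 (SE 0.14, adjusted p = 6.33e-10). miR-26b-5p ranged from 156 to 909 CPM (median 417) and from 607 to 1272 CPM (median 1067), with a log2 fold change of 1.15 (SE 0.18, adjusted p = 1.13e-06). In both cases the highest UC library, KA at 2 weeks numbered 1, was above the lowest kit library, KA at 2 weeks numbered 2.

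**Figure D2:**
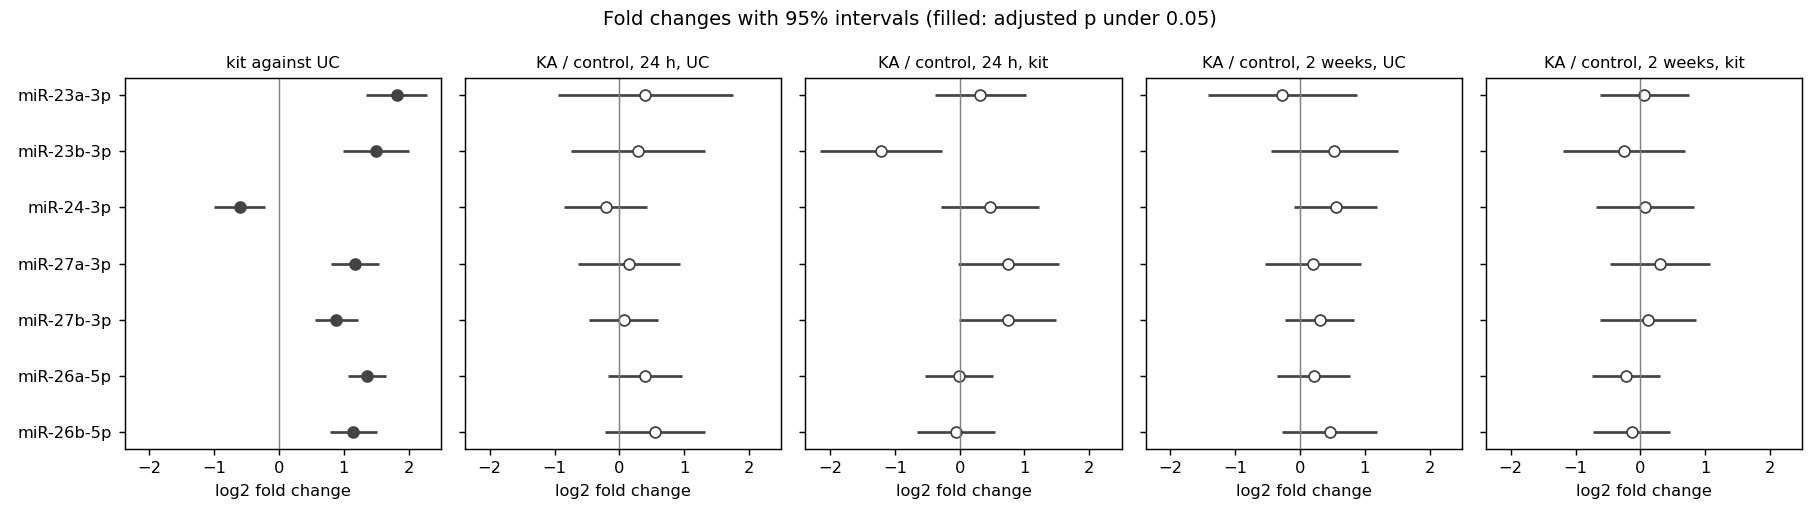
Log2 fold changes of the 7 miRNAs with 95% intervals from the edgeR quasi-likelihood fits, for kit against UC (12 and 12 libraries) and for KA against control at each time and with each method (3 and 3 libraries). Points for kit against UC are filled, meaning an adjusted p under 0.05, and lie right of 0 except miR-24-3p; no point is filled in the KA panels.

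The second comparison asked whether KA changed these miRNAs in EEFs. None of the 7 passed the adjusted test at either time with either method. The shares of all fitted miRNAs that passed were 0.476% at 24 h with UC, 0.952% at 2 weeks in UC and 0% at both times in the kit set. With an unadjusted p under 0.05 the count was 1 of 7 at 24 h in the kit set (4.62% of 520 miRNAs) and 0 of 7 in the other 3 comparisons (2.86%, 7.86% and 2.69% of the miRNAs fitted at 24 h with UC, 2 weeks in UC and 2 weeks in the kit set). Comparisons of KA with control and of 2 weeks with 24 h share libraries and are not independent of each other.

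The 1 miRNA was miR-23b-3p. In kit control libraries at 24 h it was at 303, 1027 and 575 CPM, and in kit KA libraries at 24 h at 376, 146 and 223.1 CPM. A KA library lay above the lowest control, so the groups overlapped. The log2 fold change was -1.22 (SE 0.46), with an unadjusted p of 0.0142 and an adjusted p of 0.672, and it was -0.69 (unadjusted p of 0.151) without the shallow control library numbered 2 and -0.9998 (unadjusted p of 0.0686) without the KA library numbered 2. With UC the same miRNA was at 125, 51.5 and 109 CPM in controls and at 169, 124.2 and 67.9 CPM after KA at 24 h, a log2 fold change of 0.28 (SE 0.51, adjusted p = 1.00). The difference between the 2 methods in this KA effect was -1.53 on the log2 scale (SE 0.72), with an unadjusted p of 0.0414 and an adjusted p of 0.996, and was -1.17 (unadjusted p of 0.116) without that control library. An unadjusted p under 0.05 was found for 2.27% of miRNAs in that test.

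The cluster b partner miR-27b-3p had the opposite sign at 24 h in the kit set. Controls were at 28090, 15773 and 35423 CPM and KA libraries at 30762, 50829 and 39820 CPM, with a log2 fold change of 0.74 (SE 0.36, adjusted p = 0.838, unadjusted p of 0.051). The lowest KA library lay below the highest control. miR-27a-3p was at 379, 252 and 625 CPM in these controls and at 532, 724 and 680 CPM after KA, with a log2 fold change of 0.75 (SE 0.38, adjusted p = 0.838, unadjusted p of 0.0592). Without the control library numbered 2 the 2 fold changes were 0.49 and 0.50. Neither miR-27 copy passed in any of these fits. Total counts were 290175, 154884 and 259098 in these controls and 345880, 389402 and 273380 in the KA libraries. Over the kit set miR-23b-3p fell and both miR-27 copies rose with the total count (below), the signs of their fold changes here. What part depth had in these KA effects was not tested. Of the other four, miR-24-3p had a log2 fold change of 0.47 (SE 0.37), miR-23a-3p of 0.31 (SE 0.34), miR-26b-5p of -0.06 (SE 0.29) and miR-26a-5p of -0.01 (SE 0.25), the 95% interval of the last running from -0.54 to 0.51. Scaled to the 2 reference miRNAs, which moved the median of all miRNAs to -0.40 here, miR-23a-3p (-0.22) and miR-24-3p (-0.13) were below 0.

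With UC at 24 h the log2 fold changes of the 7 ran from -0.21 for miR-24-3p to 0.55 for miR-26b-5p (median 0.28, beside 0.06 over all 420 miRNAs fitted). miR-26b-5p was at 156, 449 and 255 CPM in controls and at 658, 334 and 362 CPM after KA, so that 2 controls lay below all KA libraries and 1 above 2 of them, and its fold change ranged from 0.21 to 0.90 when single libraries were left out. At 2 weeks with UC they ran from -0.27 for miR-23a-3p to 0.55 for miR-24-3p (median 0.30, beside 0.02 over all). miR-24-3p was at 1558, 2812 and 2587 CPM in controls and at 1628, 3461 and 4298 CPM after KA (SE 0.32, adjusted p = 0.627), with 2 KA libraries above all controls and 1 near the lowest of them, and its fold change ranged from 0.059 to 0.91 when single libraries were left out. miR-23b-3p had a log2 fold change of 0.53 (SE 0.49) there, with a range of 0.11 to 1.17 over single libraries left out. When the 2 reference miRNAs set the scale, 6 of the 7 changed sign at 2 weeks with UC. At 2 weeks in the kit set the range was the narrowest of the 4, from -0.25 for miR-23b-3p to 0.31 for miR-27a-3p. The KA library at 2 weeks numbered 2 held both the lowest miR-23b-3p level (121 CPM, beside 231 and 465 CPM) and the highest miR-27b-3p level (65375 CPM, beside 37532 and 29186 CPM) of the kit set, and without it the 2-week fold changes were 0.15 for miR-23b-3p and -0.10 for miR-27a-3p.

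Time after injection was compared within controls and within KA. No member passed the adjusted test in any of the 4 comparisons, in which the share of all miRNAs that passed was 0% for controls with either method, 0.952% for KA in UC and 0.192% for KA in the kit set. In kit controls miR-27b-3p was at 31560, 55318 and 36421 CPM at 2 weeks, against the 24 h values above, a log2 fold change of 0.83 (SE 0.36) with an unadjusted p of 0.0312 and an adjusted p of 0.953; an unadjusted p under 0.05 was found for 3.65% of miRNAs. It was 0.46 (unadjusted p of 0.23) without the control library at 2 weeks numbered 2 and 0.56 (unadjusted p of 0.154) without the control library at 24 h numbered 2. None of the 7 had an unadjusted p under 0.05 in the other 3 comparisons (4.05% of miRNAs in UC controls, 10.5% after KA in UC and 3.08% after KA in the kit). No difference in the KA effect between 2 weeks and 24 h passed for any of the 7 with either method by the adjusted test (0.476% of miRNAs passed in UC and 0% in kit fractions, and 6.9% and 3.27% had an unadjusted p under 0.05), nor between kit and UC at either time (0% each, with an unadjusted p under 0.05 for 3.53% of miRNAs at 2 weeks).

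The composition within families and clusters was compared next, as the share of 1 member among the reads of its group within a library, which does not depend on how libraries are scaled to each other. Cluster b products dominated the miR-27 family and miR-26a the miR-26 family. miR-27b-3p made up 98.4 to 99.2% of miR-27 reads with UC (mean 98.8 ± 0.23, SD, n = 12) and 98.2 to 99.0% in the kit set (98.6 ± 0.26). miR-26a-5p made up 96.7 to 98.3% of miR-26 reads with UC (97.4 ± 0.42) and 97.4 to 98.1% in the kit set (97.7 ± 0.26). The miR-23 family was mixed: miR-23b-3p made up 35.3 to 92.3% with UC (67.1 ± 15.2) and 34.2 to 85.9% in the kit set (60.5 ± 14.6). The 2 products that each cluster alone makes also differed in abundance, as cluster b gave a median of 168 reads of miR-27b-3p per read of miR-23b-3p in UC and 101 in the kit set, and cluster a gave 4.33 and 2.88 reads of miR-27a-3p per read of miR-23a-3p.

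Of 6 shares compared between kit and UC, 3 differed in their mean with an adjusted p under 0.05 (two-sided permutation test, 100000 relabellings, Benjamini-Hochberg adjusted over the 6). miR-24-3p fell from 11.8% ± 2.74 of all miR-23, miR-24 and miR-27 reads with UC to 4.88% ± 2.04 in kit libraries (SD, n = 12 each, permutation p = 2e-05, adjusted p = 0.00012). Only the highest 2 kit values, 8.60 and 7.52%, reached into the UC range of 7.07 to 15.9%. miR-27a-3p fell from 81.6% ± 7.27 to 72.4% ± 5.97 of the cluster a pair (permutation p = 0.00223, adjusted p = 0.00669), and miR-27b-3p fell by 0.27 percentage points within the miR-27 family (permutation p = 0.0151, adjusted p = 0.0302). The last 2 depend on single replicate numbers: without the libraries numbered 1 miR-27a-3p differed by -5.64 points and did not pass (adjusted p = 0.11 by permutation), and without those numbered 2 or 3 miR-27b-3p did not pass (adjusted p = 0.0557 and 0.268 by permutation). miR-26a-5p was 0.28 percentage points higher in the kit set (permutation p = 0.058, adjusted p = 0.0696), miR-27b-3p differed by -0.71 points within the cluster b pair (p = 0.0562 by permutation, adjusted p = 0.0696) and miR-23b-3p by -6.64 points within its family (permutation p = 0.287), and these 3 did not pass. Without the libraries numbered 2 the cluster b pair differed by -0.44 points and passed (adjusted p = 0.0306 by permutation).

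No share was shown to differ between KA and control. The same 6 shares were compared within each method, with labels exchanged within each time (exact permutation test, 400 arrangements), and 0 of 6 passed after adjustment with either method, nor did any reach an unadjusted p under 0.05 by this test. The lowest unadjusted value, 0.065, was the same in both methods. With UC it belonged to miR-26a-5p, at 97.6% ± 0.42 in controls and 97.2% ± 0.31 after KA (SD, n = 6 each, exact permutation p = 0.065, adjusted p = 0.39), and the difference of -0.44 points was -0.17 without the libraries numbered 1. With the kit it belonged to miR-23b-3p, at 67.7% ± 12.0 of miR-23 reads in controls and 53.3% ± 14.2 after KA (n = 6 each, exact permutation p = 0.065, adjusted p = 0.39). That difference of -14.4 points was -5.24 without the libraries numbered 2 (exact permutation p = 0.278) and -21.5 without those numbered 1 (exact permutation p = 0.111).

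**Figure D3:**
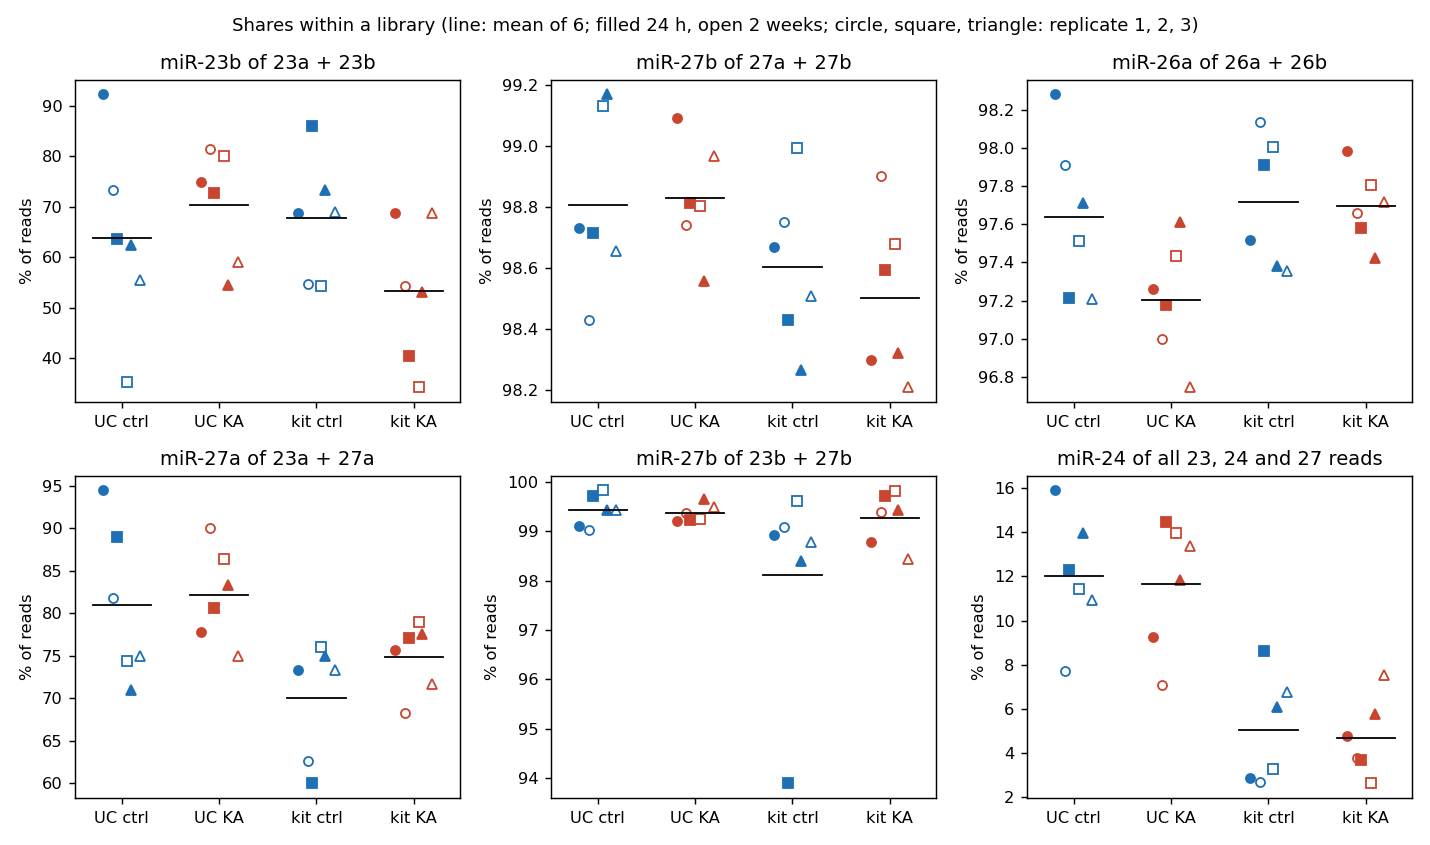
Shares of reads within a library, in percent, for 6 pairs or groups of the miRNAs, by method and treatment, with the mean of 6 libraries as a line; the vertical axes do not start at 0. The miR-24 panel shows the fall from UC to kit, and the miR-27b share of the cluster b pair holds 1 kit control at 93.9%, the shallow library at 24 h.

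Agreement across libraries was measured as the correlation of TMM-scaled log2 CPM over the 12 libraries of each method. It was tested for 7 pairs, those within a cluster and the miR-26 pair, which makes 14 tests adjusted together. Of the 12 Pearson correlations of same-cluster pairs 1 passed, which was negative, and both of the miR-26 pair passed. miR-26a-5p and miR-26b-5p agreed in UC libraries with Pearson r = 0.96 (permutation p = 2e-05, adjusted p = 0.00028) and Spearman rho = 0.96 (permutation p = 3e-05), and r was 0.91 without the 2 libraries farthest from the median of miR-26a-5p. In kit libraries they had r = 0.76 (permutation p = 0.00629, adjusted p = 0.0294) and rho = 0.41 (permutation p = 0.192), and r was 0.17 without the 2 farthest libraries, so that the relation on this scale rests on those. Scaled by library size alone r was 0.85 (0.50 without the 2 farthest), as deviations from group means it was 0.76 (0.63), without the libraries numbered 2 it was 0.14, and with log2 total taken out it was 0.62 (permutation p = 0.0322, adjusted p = 0.113).

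miR-23b-3p and miR-27b-3p, made from 1 transcript of cluster b, ran in opposite directions in kit libraries, with r = -0.89 (permutation p = 0.00018, adjusted p = 0.00126) and rho = -0.85 (permutation p = 0.00079). Without the 2 libraries farthest from the median of miR-23b-3p, r was -0.71, and without the 4 libraries numbered 2 it was -0.60 (exact permutation adjusted p = 0.413). In UC libraries, where miR-23b-3p had 6 to 24 reads, r was 0.03 (permutation p = 0.924). The total count of the library moved with both in the kit set: miR-23b-3p had r = -0.82 with log2 total (permutation p = 0.00169, adjusted over 14 such tests 0.00591; rho = -0.67, permutation p = 0.0204) and miR-27b-3p had r = 0.88 (permutation p = 4e-04, adjusted p = 0.0056; rho = 0.64, permutation p = 0.031). Without the 2 libraries with the most extreme totals these were -0.57 and 0.66. miR-27a-3p (r = 0.84) and miR-26b-5p (r = -0.80) also moved with it (permutation adjusted p = 0.00591 each), with 0.49 and -0.71 without those 2 libraries. After a line on log2 total was taken out of both, the pair had r = -0.63 (permutation p = 0.0317, adjusted p = 0.113). What part the depth of the library had in the relation was not tested beyond this.

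The other same-cluster pairs did not pass on this scale. In kit libraries miR-23a-3p and miR-27a-3p of cluster a had r = 0.67 (permutation p = 0.0199, adjusted p = 0.0695; rho = 0.62, permutation p = 0.0352), and miR-24-3p and miR-27a-3p had r = 0.57 (permutation p = 0.0577, adjusted p = 0.135; rho = 0.60, permutation p = 0.0431). With log2 total taken out the latter had r = 0.82 (permutation p = 0.00082, adjusted p = 0.00574), which passed. In UC libraries the highest of the cluster pairs was miR-24-3p with miR-27b-3p at r = 0.59 (permutation p = 0.0463, adjusted p = 0.13; rho = 0.57, permutation p = 0.0591), which was 0.20 without the 2 farthest libraries and 0.68 as deviations from group means (permutation adjusted p = 0.0466). As a description, the 7 pairs tested had a median r of 0.39 in UC and 0.37 in the kit set. The remaining 14 pairs of members had 0.31 and -0.46. Among these 14 were the paralogues miR-27a-3p and miR-27b-3p (r = 0.57 in UC and 0.90 in the kit set). The paralogues miR-23a-3p and miR-23b-3p (0.06 and -0.59) were also among them. All points of a method share its libraries and totals.

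**Figure D4:**
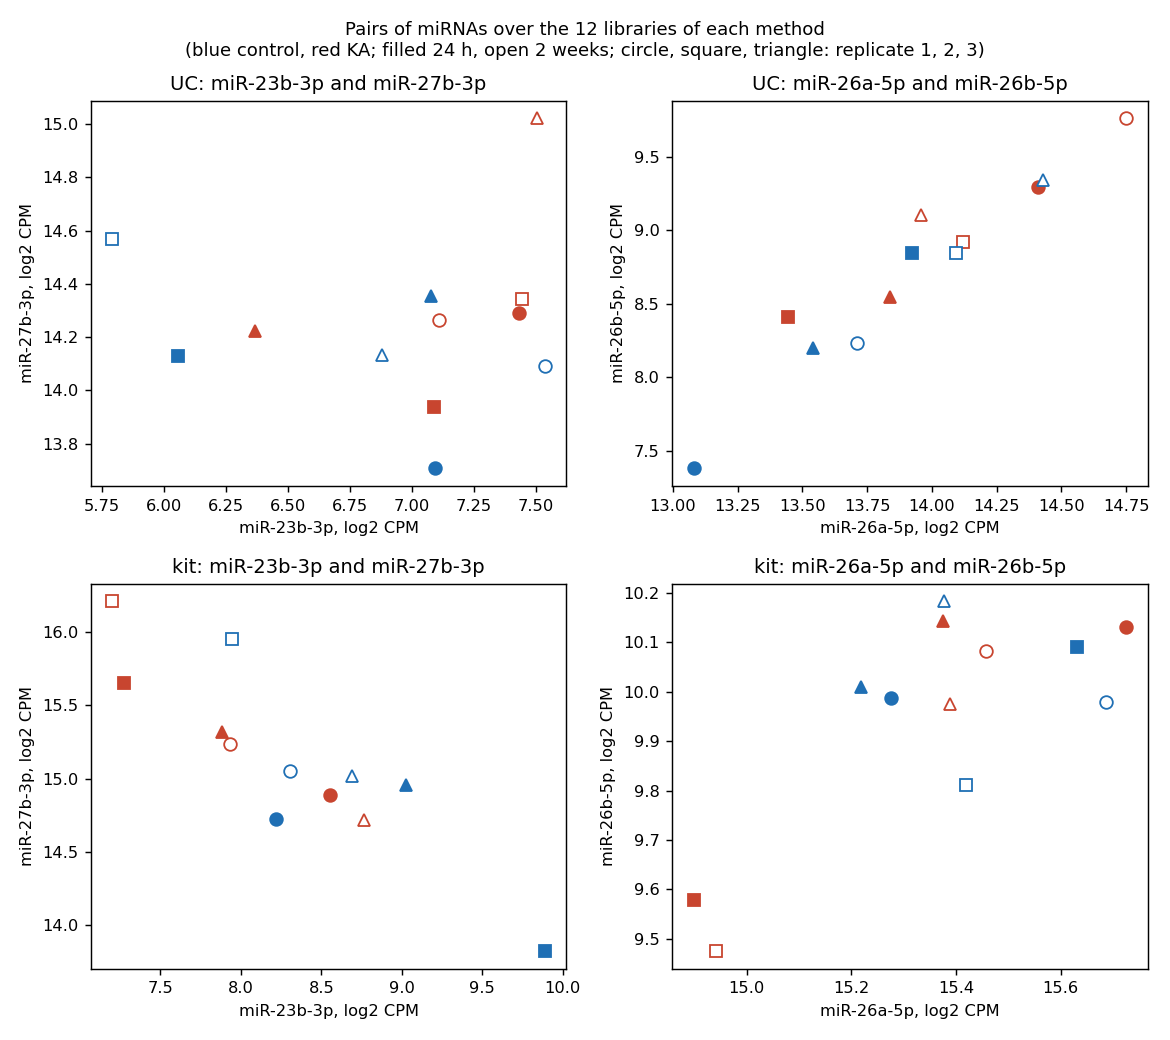
TMM-scaled log2 CPM of miR-27b-3p against miR-23b-3p and of miR-26b-5p against miR-26a-5p, 1 point per library, 12 libraries per panel. The miR-26 pair lies along a rising line with UC (r = 0.96), and the cluster b pair falls from upper left to lower right in the kit set (r = -0.89), with the shallow control library at the lower right.

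The miRNA outside these hairpins whose levels most resembled each member was found by the mean of the Spearman rho over UC and kit libraries (12 each), among 141 miRNAs with at least 10 reads in all 24 libraries. For miR-26a-5p it was let-7g-5p (mean rho 0.82) and for miR-26b-5p it was miR-126a-5p (0.70), an endothelial miRNA. miR-27b-3p was most like miR-136-3p (0.76), miR-24-3p was most like miR-129-5p (0.74) and miR-23b-3p was most like miR-222-3p (0.68). let-7c-2-3p was the closest to both cluster a products, miR-23a-3p (0.85) and miR-27a-3p (0.65). These are the highest values of many and carry no test.

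The deposited tables also list reads whose ends differ from the genome. A changed 3′ end, most often a base added after processing that the hairpin does not encode, is a known trait of miRNAs. Position 1 in these tables proved to be the first base past the mature end: over all miRNAs, only 0.0167% of the single-letter 3′ changes had the hairpin's own base when positions were read this way. The share of reads with a changed 3′ end differed widely between members and was highest for miR-23b-3p. It was 42.2% of miR-23b-3p reads in UC and 47.2% in the kit set (means of 12 libraries). miR-27a-3p had the next highest shares with both methods, 26.1 and 30.7%, and miR-23a-3p had 19.0 and 16.2%. The abundant miR-27b-3p was lowest, with 4.71 and 3.18%, and miR-26a-5p had 8.11 and 8.75%. Over all miRNA reads the share was 11.7% ± 1.48 in UC and 10.6% ± 0.94 in kit libraries (SD, n = 12).

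For miR-23b-3p nearly all of these changes were of 1 kind, a single U at position 3. It was found in 66 of 181 UC reads (36.5%) and 515 of 1168 kit reads (44.1%), and in every library, with a range of 24.4 to 52.6% in the kit set. No other member had 1 change in so large a share of its reads. A single U at position 1 was the most frequent change of miR-26a-5p (5.39% of reads in UC and 5.38% in the kit set, summed over the libraries of a method), miR-27b-3p (3.12 and 1.32%), miR-24-3p (2.87 and 3.89%) and miR-27a-3p (5.21 and 3.05%). The shares of miR-26a-5p were the steadiest, from 4.53 to 5.94% over UC libraries and from 4.60 to 6.47% over kit libraries. Counted over all patterns, changes of 4 or more letters were in 8.49% of miR-27a-3p reads in UC and 16.1% in the kit set. They were 31 of its 95 reads with a changed 3′ end in UC and 364 of 645 in the kit set. For miR-23a-3p they were 11 of 14 such reads in UC and 89 of 121 in the kit set. miR-26b-5p, in contrast to its paralogue, carried an added A as well as an added U. A single added A was found in 6.11% of its reads in UC and 9.70% in the kit set, against 0.463 and 0.536% for miR-26a-5p, and a single added U in 4.58 and 5.59%.

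miR-24-3p and miR-26b-5p had more changed 3′ ends in kit than in UC libraries. miR-26b-5p went from 13.4% with UC (range 5.41 to 17.6%) to 24.4% in the kit set (range 14.9 to 33.0%), a difference of 11.0 percentage points (two-sided permutation p = 1e-05, the smallest that 100000 relabellings can give). miR-24-3p went from 8.67 to 16.2%, a difference of 7.57 points (permutation p = 0.00035). Adjusted over the 254 miRNAs with at least 1 read in every library, p was 0.000635 for miR-26b-5p and 0.00494 for miR-24-3p, and 13.8% of these miRNAs passed, 9.84% higher and 3.94% lower in the kit set. miR-27b-3p differed by -1.52 points, kit minus UC (permutation p = 0.00987), which did not pass over all miRNAs (adjusted p = 0.0623). The remaining 4 did not pass either, with adjusted p from 0.202 to 0.831. Changes of 4 or more letters made up 4.97 of the 7.57 points for miR-24-3p, and a single added U 1.82. Such long changes were 1.21% of its reads in UC and 5.81% in the kit set. The most frequent of them was AGAGGGAC at position -6, before the mature end (0.420% of reads in UC and 3.45% in the kit set). It thus replaces the last mature bases and is not an addition past the end. The same or similar letters were listed for other members. AGAGGGAC at position -3 was in 2 of 85 UC and 9 of 762 kit reads of miR-23a-3p. AGGGAC at position -5 was in 0.274 and 2.17% of miR-27a-3p reads. The origin of these letters was not tested. For miR-26b-5p, long changes made up 2.28 of the 11.0 points (1.39 and 4.05% of reads). Another change, CU at position 0, was in 3 of its 720 UC reads (0.417%) and 78 of its 3579 kit reads (2.18%). It gives the 3′ end of miR-26a-5p, so that such reads differ from that paralogue only at base 11. Whether they are reads of miR-26a-5p with a mismatch there was not tested.

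**Figure D5:**
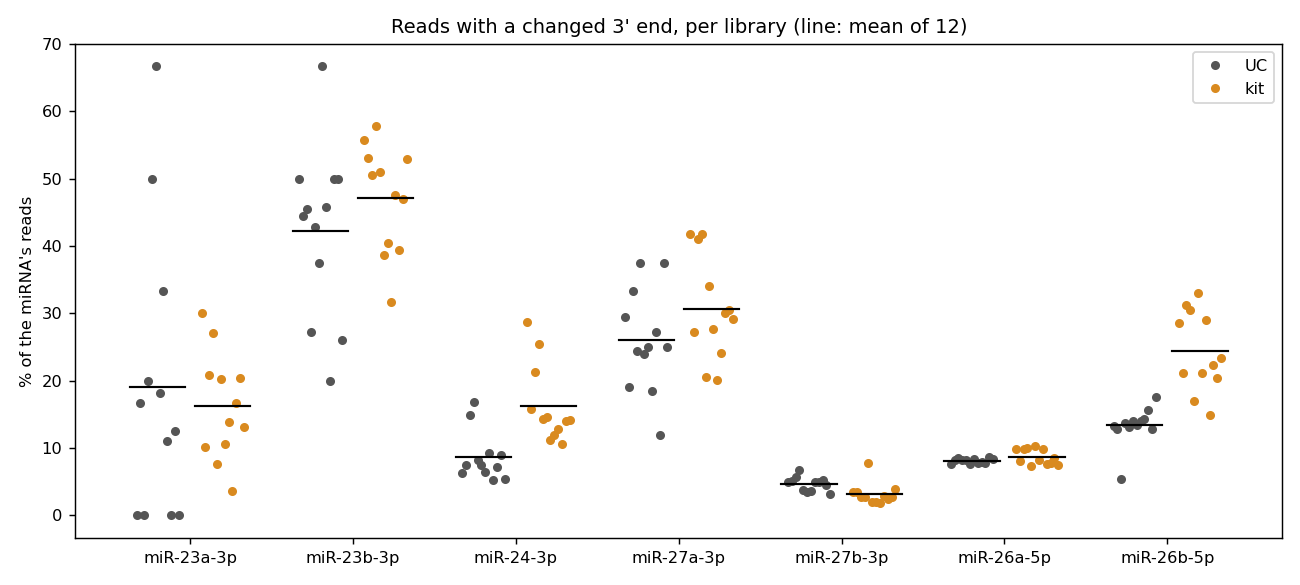
Percent of each miRNA's reads with a changed 3′ end, 1 point per library, grey for UC and orange for the kit, with the mean of 12 as a line. miR-23b-3p stands highest with both methods, and the kit points of miR-24-3p and miR-26b-5p lie above most of their UC points.

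Within the seed of miR-27b-3p, reads with the substitution A4G (position from the 5′ end) were listed in all 24 libraries, in 43 of 31437 reads with UC (0.137%) and 477 of 162245 reads in the kit set (0.294%). The tables class them as changes of the kind made by ADAR enzymes, which turn adenosine into inosine that is read as G. Per library the share was 0.0407 to 0.398% in UC and 0.188 to 0.368% in the kit set. A-to-G reads at other positions of the same miRNA were fewer, with 101 at position 13 and 93 at position 6 in all libraries together, against 520 at position 4. The study kept as edited only sites above an expected rate of sequencing error, which the A4G shares lie below. miR-27b-3p is not among the edited miRNAs it names. Errors of sequencing were not measured separately and cannot be told apart from editing in these tables.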

How the data were processed

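Small RNA-seq was analysed in 24 libraries of hippocampal EEFs. The authors deposited 2 tables of whole-number counts per library, total reads per mature miRNA and reads per listed modification, made with the Chimira tool; its rule for reads that fit several hairpins is not given in the sources used here. Listed modification counts exceeded the plain totals by 0.12 to 0.654% of a library, and shares use the plain totals. Counts were used as deposited. The 7 miRNAs, the lists and the tests were chosen with earlier results of these data known. Named were the 7 members, their other arms and, per member, the closest other miRNA.

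Within UC and kit, edgeR 4.0.16 (R 4.3.3; TMM, quasi-likelihood, 4 groups, at least 1 CPM in at least 6 libraries) gave the contrasts, and kit against UC used the 8 groups together. Log2 fold changes are first group minus second, and adjusted p-values are Benjamini-Hochberg over all miRNAs fitted. Altered ends were adjusted over the 7 in the planned test and here over all 254. Permutation tests used Python 3.11.15 with numpy 2.4.6. The fits were tested on simulated data in which 200 miRNAs were changed, 100 of them 2-fold and 100 of them 4-fold. Adjustment is stricter where fewer miRNAs change, as few passed in the KA comparisons. The rates that follow therefore likely overstate what could be found there. The fits recovered 18% of 2-fold and 62% of 4-fold changes at 24 h with the kit (520 miRNAs). With UC (420) they recovered 24% and 58%, and for kit against UC (397) 79% and 97%. Among miRNAs with at least 120 reads in all libraries fitted, the 24 h rates were 27.9% and 90.7% with the kit. With UC they were 48.9% and 93.8%. Each of the 7 members had 120 reads or more, except miR-23a-3p with UC (85 reads). Alternatives were other scalings (DESeq2 1.42.0 size factors, library size, miR-25-3p with miR-92b-3p), filters, limma 3.58.1 voom, DESeq2, a replicate block and each library left out. Whether the library numbers mark pairs is not known. Same-numbered control and KA libraries at 2 weeks correlated weakly (0.11 to 0.21 with UC, 0.19 to 0.31 with the kit). GRCm38.p6 RefSeq gave sequences and coordinates, and GENCODE M21 the host genes.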

Additional observations from a re-analysis of the deposited data

How the results depend on the processing

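The number of the 7 miRNAs past the adjusted threshold stayed at 0 for the 12 comparisons of KA, time and their interactions under all alternatives run, and was 6 or 7 for kit against UC, the lower count when miR-92b-3p and miR-25-3p set the scale and under a filter of at least 10 counts in at least 6 libraries, which left miR-23a-3p untested. Scaling to the 2 reference miRNAs shifts the fold changes of all miRNAs together, by construction. Their median moved to -0.54 at 2 weeks with UC and to -0.40 at 24 h with the kit. The KA effect then changed sign for 6 of the 7 at 2 weeks with UC, among them miR-23b-3p (-0.26) and miR-24-3p (-0.0533). At 24 h with the kit it changed sign for 2, miR-23a-3p (-0.22) and miR-24-3p (-0.13). Over single libraries left out, the KA effect ranged from -0.23 to 0.13 for miR-26a-5p and -0.20 to 0.059 for miR-26b-5p (24 h, kit), from -1.11 to 0.10 for miR-23a-3p (2 weeks, UC), and from -0.75 to 0.15 for miR-23b-3p and -0.10 to 0.53 for miR-27a-3p (2 weeks, kit). The difference in changed 3′ ends of miR-23a-3p between kit and UC ranged from -10.7 to 10.2 percentage points when a replicate number was left out.

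Agreement tests that passed numbered 1 to 4 when a replicate number was left out, with 1 without the libraries numbered 2 (the miR-26 pair in UC) and 4 without those numbered 1, miR-24-3p with miR-27b-3p in UC (r = 0.89) and miR-23a-3p with miR-27a-3p in the kit set (r = 0.93) among them. With depth taken out (added once the data were seen) 2 passed, the miR-26 pair in UC and miR-24-3p with miR-27a-3p in the kit set. For the pairing, same-numbered libraries of different groups correlated between -0.11 and 0.33 with UC and between -0.25 and 0.34 with the kit. Control and KA at 2 weeks exceeded 0.1 in all 3 pairs with both methods, as did KA at 24 h and 2 weeks with UC. So did KA at 24 h with control at 2 weeks in the kit set (0.118 to 0.127), groups that differ in treatment and time. The other groups compared within a method did not. Differently numbered libraries were not compared, so these values do not show whether the numbers pair libraries. With the block, 7 miRNAs passed for kit against UC and 0 in the other edgeR comparisons, and 3 shares, 3 agreement tests and 3 altered-end tests (adjusted over the 7) passed, as without it. Depth limits miR-23a-3p and miR-23b-3p most, with 1 to 24 reads per UC library, for which counting error is wide.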
